A study of Homo sapiens with 3 samples.

Results

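The sgRNAs described here are the jackpots of a sort for high HLA-B, the single guide RNAs that each took 5000 or more reads in the sorted library. They were chosen by that sorted read count alone, with reads matched to no sgRNA left out, and numbered 404 of the 200682 sgRNAs seen in any of the 3 libraries analysed (0.201%). The cells were K562, an established human leukaemia line whose surface bears little MHC-I, the class I proteins that present peptides to T cells. They carried Cas9 and a pooled genome-wide lentiviral knockout library (the Bassik Human CRISPR KO Library). All groups shared transduction at low virus dose (0.3 infectious particles per cell) and puromycin at 1 μg/mL for 72 h from 48 h after transduction. The sorted library held cells that received interferon-γ (IFN-γ) at 1 ng/mL for 24 h and were taken for high surface HLA-B, with an HLA-B specific antibody, in sorts on days 18 and 25. The high-screen control is the unsorted pool of the same screen. The low-screen control is the unsorted pool of a screen for low MHC-I, which used IFN-γ at 25 ng/mL and sorts on days 7 and 15. The labels do not give the day on which either unsorted pool was collected, nor whether it received IFN-γ. Each group was 1 library, so no difference below has a replicate check or a p-value.

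In a pooled knockout screen each integrated sgRNA serves as a barcode, and its reads in genomic DNA stand for the cells that carry it. When few cells pass a sort and are grown and sorted again, the descendants of single cells can fill a large part of the library, whatever their sgRNA disrupts. Screens therefore carry several sgRNAs for each gene, so that the sgRNAs of 1 gene can be read against each other. MHC-I genes in such cells are held silent by Polycomb complexes: PRC2 places the repressive H3K27me3 mark, its variant PRC2.1 is brought to unmethylated CpG islands by factors such as MTF2, and PRC1.1, built around PCGF1, ubiquitinates histone H2A at the same kind of site. Menin and LEDGF, the products of MEN1 and PSIP1, tether the H3K4 methyltransferases KMT2A and KMT2B to chromatin. IFN-γ induces MHC-I through JAK and STAT signalling, which SOCS1 restrains.

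The deposited counts name the library sgRNAs by gene and number and hold no sequences. The sgRNAs that the study cloned one at a time against genes with 2 or more jackpots are shown instead, to place the cuts in these genes. Which library sgRNA each of them corresponds to, if any, is not given in the sources used here. The protospacer is in lower case and the 3 bases next to it in the genome, the PAM that Cas9 requires, are in capitals. The last line is a control sgRNA of the study and shows what a cut outside genes looks like.
MEN1 sgRNA 1: ctcctacttcaaggatcGGG
MEN1 sgRNA 2: gtcggccacgggaaagtAGG
MEN1 sgRNA 3: attgggcccaaacactacccAGG
MTF2 sgRNA 1: gttatatgtgacaagtgTGG
MTF2 sgRNA 2: tgttactgctattgtggAGG
PSIP1 sgRNA 1: gcaaaccaaataaaagaaaAGG
PCGF1 sgRNA 1: tttgctgcctatgcgcCGG
BAHD1 sgRNA 1: ctgagttcgggcctcacTGG
Control sgRNA 2: agtaaactagcgcattgTGG

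Each of these protospacers had 1 exact site beside an NGG PAM in GRCh37, and every site in a gene was coding sequence. MEN1 sgRNAs 1 and 2 lay in exon 2 of 10, at chr11:64577173-64577189 on the minus strand and chr11:64577336-64577352 on the plus strand, and MEN1 sgRNA 3 lay in exon 3 at chr11:64575450-64575469 on the plus strand. MTF2 sgRNA 1 lay in exon 4 of 15, at chr1:93580316-93580332, and MTF2 sgRNA 2 in exon 6, at chr1:93581147-93581163, both on the plus strand. PSIP1 sgRNA 1 lay in exon 4 of 16, at chr9:15490048-15490066 on the minus strand. PCGF1 sgRNA 1 lay in exon 2 of 9, at chr2:74734216-74734231 on the minus strand. BAHD1 sgRNA 1 lay in exon 2 of 7, at chr15:40750697-40750713 on the plus strand. The control sgRNA lay at chr14:86741813-86741829 on the plus strand, in no annotated gene.

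The 3 libraries differed in depth and in evenness. Matched reads numbered 34266318 after the sort, 22562241 in the pool of the same screen and 98426251 in the pool of the low screen. The sorted library listed 49.6% of the sgRNAs, against 97.7% and 93.4% in the unsorted pools. At the threshold of 5000 reads, the unsorted pool of the same screen held 1 sgRNA and that of the low screen, the deepest library, held 31. In the sorted library 5000 reads are 29.3 times the mean count of 170.7. These are PCR reads without molecular identifiers, so the number of cells behind a count cannot be read from it, and intervals below cover counting error over sgRNAs only.

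The 404 jackpots held 3665736 reads, 10.7% of all matched reads of the sorted library. The same 404 sgRNAs made up 0.529% of the high-screen and 0.409% of the low-screen control reads. Their sorted counts had a median of 6724.5 (quartiles 5663 and 9217). The distribution had a long upper end, with 82 sgRNAs at 10000 reads or more and the 13 largest at 20183 or more. The 7575 largest sgRNAs, the jackpots among them, together held 50% of the sorted reads.

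The largest jackpot stood apart from all others. MTF2 sgRNA 4 had 312796 sorted reads and only 211 and 439 reads in the high-screen and low-screen controls. It held 0.913% of the sorted reads and 8.53% of all jackpot reads, 7.43 times the count of the next sgRNA. Without it the remaining jackpots held 9.78% of the sorted reads. Scaled to equal depth, its sorted count was 976 times that of the high-screen control and 2047 times that of the low-screen control.

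The next sgRNAs by sorted count mixed genes with several jackpots and genes with 1. MEN1 sgRNA 1 had 42094 sorted reads, against 139 and 623 in the high-screen and low-screen controls. The non-targeting sgRNA 6663, which has no site in the genome, followed with 40267 sorted reads against 212 and 125. MEN1 sgRNA 5 had 35873 against 123 and 366. SCARB2 sgRNA 7 had 28895 against 114 and 248, in a gene for a lysosomal membrane protein. EZH2 sgRNA 8, against the methyltransferase of PRC2, had 25462 against 62 and 701. OXTR sgRNA 8, against the oxytocin receptor, had 23903 against 618 and 1324. TBK1 sgRNA 8, against a kinase of innate immune signalling, had 23685 against 238 and 189. The remaining 12 of the 20 largest jackpots ran from 17805 to 21679 reads. They were sgRNAs against PSIP1 (numbers 2 and 5), GRIN2B (6), EZH2 (3), NUTM2E (7), CHMP5 (8), AL355390.1 (6), ZBTB22 (8), MOGAT3 (10), MRPL53 (10), ZNF460 (9) and MEN1 (4). Of these 20 sgRNAs, the 9 against MTF2, MEN1, EZH2, PSIP1 and CHMP5 had at least 1 other jackpot in the same gene. The other 11 were the non-targeting sgRNA 6663, which has no target gene, and sgRNAs whose gene had no other jackpot.

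At the lower end the threshold fell within a continuous run of counts. The 5 jackpots just inside were sgRNAs against MAGEA10 (5012 sorted reads), CLIP4 (5017), MCM6 (5019) and PLEKHA1 (5023) and the non-targeting sgRNA 6699 (5014). The 5 sgRNAs just outside targeted MEPE (4999), CNDP1 (4998), MYO1D (4982), GAS2L2 (4981) and CCDC34 (4971). Their high-screen control counts overlapped, at 107 to 722 reads inside and 144 to 703 outside.

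The unsorted pools were not used in the choice. The paper describes such pools as cultured alongside the sorted cells, so their counts are not known to be levels before the sort. In the high-screen control the jackpots had a median of 212 reads (quartiles 128.75 and 337), against 87 over all sgRNAs, a ratio of 2.44. In the low-screen control their median was 654.5 (quartiles 353 and 1090.25), against 391, a ratio of 1.67. Most jackpots stood above the middle of the pools: 361 (89.4%) lay above the median of all sgRNAs in the pool of their own screen, 290 (71.8%) in that of the low screen and 275 in both. The median log2 ratio between the high-screen and low-screen controls, each scaled to its total, was 0.44 over the jackpots and -0.03 over all sgRNAs. The jackpots were thus further above the library's median in the pool of their own screen than in the other pool.

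Within genes the same order was seen. In the 334 genes with exactly 1 jackpot, the jackpot's high-screen control count exceeded the median of the gene's other sgRNAs in 294 (88.0%), and it was the highest of the gene in 136 (40.7%). In the low-screen control these numbers were 232 (69.5%) and 80 (24.0%). Among the jackpots themselves, however, the control count did not order the sorted count. Spearman's rho over the 404 jackpots was -0.05 between the sorted library and the high-screen control and -0.14 with the low-screen control, against 0.39 and 0.29 over all 200682 sgRNAs. The range of sorted counts is cut at the threshold in the first pair of values, and the sgRNAs share their libraries, so these are descriptions only. The pools were more alike, with rho 0.59 over the jackpots and 0.55 over all sgRNAs.

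Few jackpots were rare in the unsorted pools. None was at 0 in the high-screen control and 1 was under 10 reads, VSIG10 sgRNA 10, with 9518 sorted reads against 9 and 171. The other jackpots under 30 reads in the high-screen control were PINK1 sgRNA 10 (12 reads), EZH2 sgRNA 6 (18), SUZ12 sgRNA 6 (23) and CHMP5 sgRNA 8 (25). In the low-screen control 9 jackpots (2.23%) were at 0, against 6.56% of all sgRNAs. They were BAHD1 sgRNA 3, the safe-targeting sgRNA 1329 and sgRNAs against CLLU1OS, EOGT, MESDC2, PDCD4, PINK1, PPAP2B and ZER1. PINK1 sgRNA 10, against a mitochondrial kinase, had 12319 sorted reads and was low in both pools. No jackpot was at 0 in both. The jackpots named here for a low control count were singled out after their values were seen.

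Relative to the high-screen control, the jackpots had a median log2 ratio of 4.55 (quartiles 3.72 and 5.38), computed after scaling the control to the sorted total and adding 1 to both counts. Relative to the low-screen control the median was 5.03 (quartiles 4.11 and 6.08). The sorted count chose these sgRNAs, so the ratios describe them and support nothing. A log2 ratio above 5 to the high-screen control was found for 147 jackpots and a ratio below 2 for 8.

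The 5 jackpots with the most reads in the high-screen control also had the lowest log2 ratios to it. MAD2L2 sgRNA 4, against a subunit of the translesion polymerase zeta and of shieldin, had 14310 sorted reads against 11375 and 55495 in the high-screen and low-screen controls. It was the single jackpot at or below a log2 ratio of 1, with -0.27 to the high-screen and -0.43 to the low-screen control, and it alone held 9.54% and 13.8% of the jackpots' reads in those pools. At equal depth this sgRNA was no more abundant after the sort than in either unsorted pool. AFF2 sgRNA 8 (6045 sorted reads against 1483 and 5270), FGFBP2 sgRNA 2 (5559 against 1404 and 4782), NCKAP5L sgRNA 7 (5774 against 1319 and 2851) and DRC1 sgRNA 1 (5145 against 1308 and 4565) had log2 ratios of 1.37 to 1.53 to the high-screen control.

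Sorting the jackpots by target, 366 (90.6%) were directed against genes, 33 (8.17%) were non-targeting and 5 (1.24%) were safe-targeting. Safe-targeting sgRNAs cut genomic sites with no known function, so they control for the cut itself, while non-targeting sgRNAs cut nothing. Non-targeting sgRNAs made up 2.31% of the library. Jackpots were 0.193% of 189398 gene-targeting sgRNAs (95% exact binomial interval 0.174 to 0.214%), 0.0752% of 6645 safe-targeting sgRNAs (0.0244 to 0.176%) and 0.711% of 4639 non-targeting sgRNAs (0.490 to 0.998%). The share of non-targeting sgRNAs was 9.45 times that of safe-targeting and 3.68 times that of gene-targeting sgRNAs, and the gene-targeting share was 2.57 times the safe-targeting one. The interval of the non-targeting share lay above both others, while those of safe-targeting and gene-targeting sgRNAs overlapped between 0.174 and 0.176%. As many sgRNAs were also taken by their log2 ratio to the high-screen control. The non-targeting share was then 0.129%, beside 0.211% of safe-targeting and 0.203% of gene-targeting sgRNAs. These shares rest on few control sgRNAs, and no interval was computed for them.

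The classes also differed in the unsorted pool of the same screen. The median high-screen control count was 154 for non-targeting sgRNAs, 87 for safe-targeting and 86 for gene-targeting ones. In the sorted library 36.3% of the non-targeting sgRNAs were not listed, against 49.6% and 50.8%. Over gene-targeting sgRNAs the share of jackpots rose with the control count, from 0.0066% under 10 reads through 0.032%, 0.0858%, 0.224% and 0.502% at 10 to 49, 50 to 99, 100 to 199 and 200 to 399 reads to 1.87% at 400 reads or more. Among sgRNAs with at least 100 control reads the shares were 0.375% of 82679 gene-targeting (0.334 to 0.419%), 0.136% of 2938 safe-targeting (0.0371 to 0.348%) and 1.06% of 3112 non-targeting sgRNAs (0.731 to 1.49%). A minimum does not match depth, so the shares were also set side by side within bins of the control count. At 100 to 199 reads the share was 0.521% of non-targeting (0.210 to 1.07%) and 0.224% of gene-targeting sgRNAs (0.186 to 0.268%). At 200 to 399 reads it was 1.02% (0.544 to 1.74%) against 0.502% (0.419 to 0.597%), and from 400 reads 2.64% (1.41 to 4.47%) against 1.87% (1.43 to 2.39%). The intervals overlapped in each of these 3 bins. Under 100 reads 0 of 1527 non-targeting sgRNAs were jackpots, which allows a share of up to 0.196%. The part of the control count in the difference between the classes was not tested.

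Single control sgRNAs reached high counts. The non-targeting sgRNAs with the most reads were 6663 (above), 617 with 12647 sorted reads against 201 and 579, and 2059 with 11307 against 594 and 617. The 3 largest safe-targeting jackpots were 1329 with 9348 against 41 and 0, 3587 with 8896 against 151 and 929, and 1823 with 6883 against 205 and 1493. The counts of these control sgRNAs, which disrupt no known gene, overlapped with those of MEN1, EZH2 and SUZ12 jackpots.

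The 366 gene-targeting jackpots fell on 347 genes, 1.7% of the 20381 genes of the library. Of these, 334 genes had exactly 1 jackpot, which took in 91.3% of the gene-targeting jackpots. Genes with 2 or more jackpots numbered 13, or 0.0638% of the library's genes, and held 32 jackpots (8.74% of the gene-targeting ones) with 715933 reads, 19.5% of all jackpot reads. Without MTF2 sgRNA 4 they held 403137 of 3352940 jackpot reads (12.02%). The 13 were MEN1 with 5, EZH2 with 4, MTF2 with 3, and PSIP1, SUZ12, PCGF1, BAHD1, SOCS1, CHMP5, PRSS27, C10orf105, SCNN1A and SLURP1 with 2 each. Taken per pair, when 1 sgRNA of a gene was a jackpot, another sgRNA of the same gene was one in 58 of 3157 cases (1.84%), beside 0.193% over all gene-targeting sgRNAs. Without MEN1, EZH2 and MTF2 this was 20 of 3053 (0.655%), and without the 9 of the 13 genes that stood in a gene list it was 8 of 2947 (0.271%).

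Menin, encoded by MEN1 (chr11:64570982-64578766, minus strand, GRCh37), had the most jackpots. Its 5 jackpots were sgRNAs 1, 5, 4, 8 and 6, with 42094, 35873, 17805, 12173 and 5493 sorted reads. In the high-screen control these had 139, 123, 167, 155 and 114 reads, and in the low-screen control 623, 366, 252, 416 and 138. They were all of the MEN1 sgRNAs that had 100 or more reads in the pool of the same screen. The other 5 had 2 to 33 reads there and 881, 169, 110, 8 and 1 reads after the sort. Of the 3 with at least 10 control reads, sgRNAs 3 and 2 had log2 ratios of 4.62 and 2.44 and sgRNA 7 had -2.51, while against the low-screen control 2 of 4 were above 1 and the median was -0.79. The reads of MEN1 were spread over its jackpots, of which the largest took 36.7% of the sorted reads of the gene.

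LEDGF, encoded by PSIP1 (chr9:15464064-15510993, minus strand), binds Menin and chromatin. PSIP1 sgRNA 5 had 21679 sorted reads against 49 and 723, and sgRNA 2 had 18974 against 227 and 740. Another sgRNA, number 9, lay just under the threshold with 4347 reads against 83 and 654. Of the 6 others with at least 10 control reads, 4 had a log2 ratio above 1, with a median of 2.40. PSIP1 overlaps the gene SNAPC3 in the annotation. The methyltransferases to which Menin and LEDGF bind had no jackpot, with at most 960 sorted reads for KMT2A and 37 for KMT2B.

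The catalytic core of PRC2 was represented by EZH2 and SUZ12. EZH2 (chr7:148504349-148581413, minus strand) had jackpots at sgRNA 8 with 25462 reads, sgRNA 3 with 20483 against 152 and 474, sgRNA 10 with 13816 against 160 and 1154, and sgRNA 6 with 6844 against 18 and 557. Of its other 5 sgRNAs, 3 had log2 ratios of 5.29, 5.23 and 2.93 and the other 2 were not listed after the sort. SUZ12 (chr17:30264026-30328057, plus strand), the scaffold subunit, had 17080 reads at sgRNA 4 against 102 and 463, and 7558 at sgRNA 6 against 23 and 231. All 4 of its other sgRNAs with at least 10 control reads were above 1, with a median of 2.00, while against the low-screen control 3 of 8 were and the median was -0.12. EED, the H3K27me3-binding subunit, fell just short of the threshold, with 4885 reads at sgRNA 7 against 11 and 870. Of its 9 sgRNAs with at least 10 control reads, 6 were above 1, with a median of 3.05.

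MTF2 (chr1:93544792-93604636, plus strand) directs PRC2.1 to CpG islands. Beside sgRNA 4 it had 13307 sorted reads at sgRNA 6, against 59 and 539, and 7127 at sgRNA 2, against 68 and 143. Of all MTF2 reads after the sort, 92.5% belonged to sgRNA 4. The other 7 sgRNAs of MTF2 were divided: sgRNA 8 had 4262 reads (log2 ratio 3.05) and sgRNA 10 had 749 (3.57), sgRNA 1 had 36, and the remaining 4 were not listed, with 10 to 52 reads in the high-screen control. MTF2 thus held the largest jackpot and also 5 sgRNAs below a log2 ratio of -1. The median of its 7 others was -4.02, and against the low-screen control it was -5.68, with 2 of 5 above 1.

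PCGF1 and BAHD1 had more even profiles. PCGF1 (chr2:74732170-74734822, minus strand) had 14606 reads at sgRNA 10, against 99 and 1005, and 5396 at sgRNA 2, against 231 and 471. All 8 of its other sgRNAs were listed after the sort, 7 of them above a log2 ratio of 1, with a median of 2.30 and up to 4621 reads. BAHD1 (chr15:40731920-40760435, plus strand), which encodes a reader of H3K27me3, had 9151 reads at sgRNA 3, against 61 and 0, and 5566 at sgRNA 10, against 115 and 1034. Of its 8 others, 5 were above 1 and 3 below -1, with a median of 1.28. Against the low-screen control 4 of 8 others of BAHD1 were above 1 (median 0.24) and 5 of 8 of PCGF1 (median 2.29). The jackpots held 57.3% of the PCGF1 reads and 72.1% of the BAHD1 reads.

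SOCS1 (chr16:11348274-11350061, minus strand), the inhibitor of JAK kinases, had 9874 reads at sgRNA 9, against 195 and 577, and 5242 at sgRNA 1, against 326 and 1024. Among the 13 genes its jackpots held the smallest share of the gene's sorted reads, 49.8%. Of its other 8 sgRNAs, 7 were above a log2 ratio of 1 against either control, with medians of 3.44 to the high-screen and 2.46 to the low-screen control. SOCS1 overlaps RMI2 in the annotation. CHMP5 (chr9:33264877-33282068, plus strand), a subunit of the ESCRT-III membrane scission complex, had 20183 reads at sgRNA 8, against 25 and 326, and 9146 at sgRNA 7, against 137 and 189. Of its 6 others measured, 2 were above 1 (4.28 and 4.19) and the median was 0.46, while against the low-screen control 3 of 8 were above 1 and the median was -0.99.

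The last 4 genes with 2 jackpots stood in none of the gene lists. PRSS27, a serine protease, had jackpots of 14481 and 6524 reads, and 2 of its 8 others were above 1 with a median of -1.81. C10orf105, which lies within CDH23, had 8247 and 5886 reads, and 2 of 8 others above 1 with a median of -1.70. SCNN1A, a subunit of the epithelial sodium channel that overlaps LTBR, had 6606 and 6196 reads and 0 of 8 others above 1, with a median of -5.13. SLURP1, a secreted protein of epithelia, had 5163 and 5102 reads and 1 of 8 others above 1, with a median of -5.47. In all 4 genes most of the remaining sgRNAs thus stood lower after the sort than in the unsorted pool. The same held for MTF2, with a median of -4.02, and for all gene-targeting sgRNAs, with a median of -4.82.

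The other sgRNAs of these genes were not used in the choice beyond having fewer than 5000 reads. In the 13 genes, 87 of them reached 10 reads in the high-screen control, and their log2 ratios had a median of 0.64 (quartiles -4.14 and 2.93). Of these, 41 (47.1%, interval 36.3 to 58.1%) were above 1, beside 12.6% of all gene-targeting sgRNAs measured. In the 334 single-jackpot genes the median was -4.66, and 364 of 2676 (13.6%, 12.3 to 15.0%) were above 1. In genes with no jackpot it was -4.84, with 12.4% above 1. Against the low-screen control, 41.3% in genes with 2 or more jackpots and 14.4% in single-jackpot genes were above 1, beside 13.2% of all, but the median in genes with 2 or more jackpots changed sign, to -0.43. The sgRNAs not listed after the sort were 21.9% of 96 in genes with 2 or more jackpots, 48.6% in single-jackpot genes and 50.9% in genes without one.

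The 13 genes were not alike in this respect. In the 9 that stood in a gene list, 36 of 55 other sgRNAs (65.5%) were above 1 and the median was 2.07. In PRSS27, C10orf105, SCNN1A and SLURP1 it was 5 of 32 (15.6%), with a median of -3.14. The latter values lay beside those of genes with 1 jackpot or none. By gene, the medians ran from -4.02 (MTF2) to 3.44 (SOCS1) in the 9 and from -5.47 to -1.70 in the 4. The ranges overlapped, because MTF2 lay among the 4. The lists were written with earlier results of these data known, so this division is not independent of them.

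In the 334 single-jackpot genes the jackpot usually held nearly all of the gene's reads. Its share of the gene's sorted reads had a median of 88.4% (quartiles 78.6 and 94.2%) and exceeded 90% in 144 genes (43.1%). The largest other sgRNA of the gene had a median of 578 reads. In 110 of the 334 genes (32.9%, interval 27.9 to 38.3%) no other measured sgRNA was above a log2 ratio of 1, and in 126 exactly 1 was. Genes with no jackpot had none above 1 in 6889 of 20034 cases (34.4%), but over a mean of 8.54 measured sgRNAs against 8.01 others in single-jackpot genes. At 8 measured sgRNAs the shares were 24.5% of 102 single-jackpot genes (interval 16.5 to 34.0%) and 36.6% of 3098 genes with no jackpot (34.9 to 38.4%). At 9 they were 30.7% of 150 (23.4 to 38.7%) and 31.3% of 6177 (30.1 to 32.5%). SCARB2 was a gene with none, with 28895 reads at sgRNA 7, 5 of the other 9 not listed and none of them over 215 reads.

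In some single-jackpot genes several other sgRNAs were above 1. Of the 334, 68 (20.4%) had 2 others above 1, 24 (7.19%) had 3 and 6 (1.80%) had 4 or more, beside 19.98%, 7.10% and 1.85% of the genes with no jackpot. These shares set a mean of 8.01 measured others against 8.54 sgRNAs. At 8 measured sgRNAs the shares with 2, 3 and 4 or more were 21.6%, 7.84% and 1.96%. Genes with no jackpot had 18.8%, 5.33% and 0.904%. At 9 the shares were 21.3%, 9.33% and 2.67%, against 21.3%, 7.43% and 2.01%. The intervals for 4 or more overlapped at both numbers. LRRC8A, a subunit of volume-regulated anion channels, had 6 of 8 above 1 beside a jackpot of 5260 reads. CHIC2, MAP4K5 and TBK1 had 5 of 9 each. NKX2-5, a cardiac transcription factor, had 4 of 9 but a median of -4.57. Against the low-screen control the numbers above 1 were 5 of 9 for LRRC8A and CHIC2, 3 of 8 for TBK1 and MAP4K5 and 2 of 9 for NKX2-5. These genes were named after their values were seen.

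Counted by list, jackpots made up the largest shares of the KMT2A/B-specific, PRC2 core and PRC2.1 lists, at 17.9%, 10.7% and 5.00% of their sgRNAs. The lists of KMT2A/B-specific subunits, H3K27me3 readers, PRC1.1, PRC2 core, PRC2.1 and PRC2.2 together held 34 genes and 329 sgRNAs, of which 20 (6.08%, interval 3.75 to 9.23%) were jackpots, beside 0.193% of all gene-targeting sgRNAs. The 20 fell on 7 genes (MEN1, PSIP1, EZH2, SUZ12, MTF2, PCGF1 and BAHD1), each with at least 2. The interval takes sgRNAs of the same gene as independent. Because the lists were written with earlier results of these data known, these shares are descriptions only. By list these were 7 of 39 sgRNAs for KMT2A/B-specific subunits, 6 of 56 for PRC2 core, 3 of 60 for PRC2.1, 2 of 94 for PRC1.1, 2 of 70 for H3K27me3 readers and 0 of 20 for PRC2.2. Canonical PRC1, a Polycomb list outside these 6, had 0 of 118, the shared COMPASS core 0 of 34 and SETD1-specific subunits 0 of 39. These counts allow shares of up to 2.54%, 8.82% and 7.69%, and that of PRC2.2 up to 15%. Lists of this size cannot show fewer jackpots than the 0.193% of all gene-targeting sgRNAs. KMT2C/D-specific subunits had 1 of 51, KDM6A sgRNA 6 with 5995 reads. Its share of 1.96% was close to the 2.13% of PRC1.1, each with a wide interval (0.0496 to 10.4% and 0.259 to 7.48%). RYBP, a subunit of PRC1.1, had no jackpot and at most 4435 reads. Of its 10 sgRNAs 2 were above a log2 ratio of 1, with a median of -5.48.

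Among genes of the IFN-γ response, the negative regulators had 2 jackpots of 109 sgRNAs (1.83%, beside 0.193% of all gene-targeting sgRNAs), both in SOCS1. SOCS3 had at most 4193 reads, with 1 of 10 sgRNAs above a log2 ratio of 1 and a median of -6.38. The activators of the pathway had 0 of 60 and the antigen presentation genes 0 of 139, which allow shares of up to 5.00% and 2.16%, so lists of this size cannot show fewer jackpots than the background. The MHC-I enhanceosome list had 1 of 83 (1.20%, interval 0.0305 to 6.53%), NFYA sgRNA 5 with 6500 reads against 126 and 862. None of the other 9 NFYA sgRNAs was above a log2 ratio of 1. NFYA encodes a subunit of the NF-Y activator of MHC promoters. The ESCRT list had 2 of 273 (0.733%, interval 0.0888 to 2.62%), both in CHMP5. The NF-κB list had 1 of 160 (0.625%, 0.0158 to 3.43%), in TBK1, and the TIP60 list 0 of 162, which allows up to 1.85%.

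Further lists served as comparison. Erythroid regulators had 1 jackpot of 78 sgRNAs (1.28%, interval 0.0325 to 6.94%), NFE2 sgRNA 4 with 10893 reads against 197 and 247. Growth suppressors had 1 of 217 (0.461%, 0.0117 to 2.54%), TSC2 sgRNA 9 with 10113 against 302 and 748. In each case 2 of the gene's other sgRNAs were above a log2 ratio of 1, with medians of -2.82 and -5.72. BCR-ABL1 signalling genes had 0 of 98, which allows a share of up to 3.06%. The intervals of the erythroid and growth suppressor lists held the 0.193% of all gene-targeting sgRNAs. Proteasome subunits, both ribosomal protein lists and the spliceosome, which cells need to grow, together had 0 of 1266, which allows a share of up to 0.237%, and a median of 45 reads in the high-screen control. Olfactory receptors, genes of the sense of smell, had 7 of 3676 (0.190%) in 7 different genes, a share at the level of all gene-targeting sgRNAs.

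By the number of the sgRNA within its gene, the share of jackpots ran from 0.157% (number 4) to 0.239% (number 8). By chromosome it ran from 0.0788% on chromosome 20 to 0.366% on chromosome 13, with 0 of 204 sgRNAs on Y. Chromosomes 10 (0.349%, interval 0.224 to 0.519%) and 16 (0.312%, 0.200 to 0.463%) lay above the 0.193% of all gene-targeting sgRNAs. Chromosome 19 (0.0906%, 0.0468 to 0.158%) lay below that share, out of 24 chromosomes compared. Of the 347 genes with a jackpot, 334 were matched by identifier to GENCODE release 44 on GRCh37, and 326 of these were protein coding and 6 were long non-coding RNAs.

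The count of genes with 2 or more jackpots rested on the threshold. At 2500 reads 76 genes had 2 or more, the 13 among them, and 7 had at least 3: BAHD1, EZH2, MEN1, MTF2, PCGF1, PSIP1 and SOCS1. At 10000 reads 4 genes were left, EZH2, MEN1, MTF2 and PSIP1. When the 404 sgRNAs with the highest log2 ratio to the high-screen control were taken instead, 133 of them were also jackpots by count, and 8 genes had 2 or more, 7 of them shared with the 13 (CHMP5, EZH2, MEN1, MTF2, PCGF1, PSIP1 and SUZ12).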

How the data were processed

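Genomic DNA of 3 libraries was sequenced across the sgRNA cassette after 2 rounds of PCR. The deposited files give unnormalized read counts for each sgRNA. The authors trimmed the reads before aligning them with Bowtie2 to the sgRNA sequences, and dropped those with several matches. Tools named in the submitters' processing notes were Bowtie2, cutadapt and bcl2fastq, and their versions are not given in the sources used here. An sgRNA not listed in a library was given 0. Reads matched to no sgRNA (21.9% of the sorted library, 20.6% and 12.1% of the high-screen and low-screen controls) were left out.

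Computations used scipy 1.17.1, pandas 2.3.3 and numpy 2.4.6 under Python 3.11.15. Jackpots had at least 5000 sorted reads. The log2 ratio was taken as sorted count plus 1 over the control count, scaled to the sorted total, plus 1, for sgRNAs with at least 10 control reads. Intervals are 95% Clopper-Pearson intervals over sgRNAs. Limits for a count of 0 use 3 counts. With 1 library per group no test was run. The scripts were tested on simulated data. Genes were keyed by Ensembl identifier and placed with GENCODE release 44 on GRCh37. The sgRNA names carry no sublibrary code, so a planned count by sublibrary was not run.

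The members and gene lists were chosen with earlier results of these data known. Genes were named where they had 2 or more jackpots, where an sgRNA was among the 20 largest, next to the threshold or among the 5 highest in the high-screen control, or where a described list held them. Alternatives were other thresholds, choice by ratio, other pseudocounts and minimum counts, the low-screen control and the removal of single sgRNAs. The values of 1 gene with a single jackpot are not reported here.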

Additional observations from a re-analysis of the deposited data

How the results depend on the processing

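Over 14 values and 68 values under alternative settings, 33 kept within their counting interval or 1.5 times the count, 33 moved and 2 reversed. Some of those that kept could not have changed. The choice by ratio took 404 sgRNAs by design. All jackpots were listed in the high-screen control, so leaving out unlisted ones there changed nothing. At 2500 reads there were 1796 jackpots with 24.4% of the sorted reads, 0.602% of safe-targeting, 2.44% of non-targeting and 0.867% of gene-targeting sgRNAs, 76 genes with 2 or more and 1477 with 1, and the median log2 ratio of the other sgRNAs in genes with 2 or more reversed to -4.02. At 10000 reads there were 82 with 4.53% of reads, 0% of safe-targeting, 0.0862% of non-targeting and 0.0412% of gene-targeting sgRNAs, 4 genes with 2 or more and 67 with 1, 0% under 10 control reads and a paired share of 3.25%. The medians of the other sgRNAs were then 2.68 in genes with 2 or more and -3.62 in genes with 1. Chosen by log2 ratio, 404 sgRNAs held 7.04% of reads and 8 genes with 2 or more. They were 0.211% of safe-targeting, 0.129% of non-targeting and 0.203% of gene-targeting sgRNAs. Their medians were 40 and 319.5 reads in the high-screen and low-screen controls. None could be under 10 reads in the high-screen control, because the ratio required at least 10. The jackpots' share of reads was 9.78% without the largest sgRNA and 8.36% with unmatched reads counted. Against the low-screen control the median of the other sgRNAs in genes with 2 or more reversed to -0.43. The median in single-jackpot genes was -3.00 with a pseudocount of 5 and -4.02 without a minimum count, and at a minimum of 30 reads 40.4% of these genes had no other sgRNA above 1. Chosen after seeing the data, a minimum of 100 control reads gave 1.06% of non-targeting and 0.375% of gene-targeting sgRNAs, and leaving out MEN1, EZH2 and MTF2 gave a paired share of 0.655%. The causes were not tested. No paired analysis was possible because each group was 1 library and no test was run.

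With 1 library per group, the spread between repeated sorts is not known. For a single jackpot, an effect of the sgRNA and the growth of few cells cannot be told apart from its count. The screens differed in IFN-γ dose and sort days, so the low-screen control differs from the sorted library in more than the sort. Depth in the high-screen control limited the ratios of sgRNAs under 10 reads, which include several against MEN1 and SUZ12.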
